A study of Homo sapiens with 4 samples.

Results

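RAS proteins are small GTPases that relay growth factor signals to the kinases RAF, MEK and ERK. ERK in turn raises transcription of a set of inhibitors that act back on the cascade, so the RNA levels of these inhibitors are widely read as a record of ERK output. Described here are 9 genes of this circuit, listed by name for their place in it, at a time when earlier results of these data were known: NRAS, a RAS gene itself; NF1, SPRED1 and SPRED2, which act together to switch RAS off; SPRY2, a Sprouty inhibitor; DUSP4, DUSP5 and DUSP6, which encode phosphatases that remove the activating phosphates of ERK; and PHLDA1, an ERK-responsive gene. They are 9 of 67062 rows in the count table. All 9 were found by symbol, and all 9 passed the filter on low counts, with at least 240 reads in every library.

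The RNA came from OCI-AML3, a human cell line grown from acute myeloid leukaemia. The line carries NPM1 in its cytoplasmic mutant form and, as is known of it, an activating NRAS mutation. Both alleles of NRAS are counted together, so its level says nothing about the share of mutant RNA. One set of cultures was transduced with the retroviral vector pMSCV-PIG carrying the long noncoding RNA LONA (PIG-LONA, 2 libraries), and the other with the same vector lacking an insert (PIG-EMPTY, 2 libraries). Every culture therefore expressed the vector's puromycin resistance and GFP, every culture was sorted for GFP, and each library of a group came from its own transduction of this single line. Read totals were 30181550 and 38358442 in the PIG-LONA libraries, and 29819572 and 32350832 in the PIG-EMPTY libraries. LONA itself could not be assigned to a row of the table, so its level is not given and the vector labels could not be checked against it. Of 6 markers of myeloid blasts, all were expressed and 2 were lower in PIG-LONA, the aminopeptidase gene ANPEP (log2 fold change -0.57) and SPI1 (-0.13). That share was 33.3%, where 6.44% of all genes tested were called and 3.51% were lower, by the edgeR test given below. All 4 erythroid and 3 of 4 T cell markers were at 0 in every library, and the highest count of any B cell, fibroblast or epithelial marker was 27. PECAM1, which leukocytes share with endothelium, was lower (-0.31), while the other 3 endothelial markers reached at most 7 counts.

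Sequence just around the transcription start is shown for the 3 genes that fell (DUSP6, SPRED1 and PHLDA1) and for SPRED2, the close relative of SPRED1 that did not pass the test. Each line runs 5′ to 3′ on the gene's own strand, from 250 bases before to 50 bases after the RefSeq start on GRCh38.p14. The windows lie at chr12:89352452-89352751 (minus strand) for DUSP6, chr15:38252586-38252885 (plus strand) for SPRED1, chr12:76031727-76032026 (minus strand) for PHLDA1 and chr2:65432550-65432849 (minus strand) for SPRED2, upstream of its other listed start. Capitals mark CGGAAG or its reverse complement, a core of the sites that ETS factors, nuclear targets of ERK, can bind.
DUSP6: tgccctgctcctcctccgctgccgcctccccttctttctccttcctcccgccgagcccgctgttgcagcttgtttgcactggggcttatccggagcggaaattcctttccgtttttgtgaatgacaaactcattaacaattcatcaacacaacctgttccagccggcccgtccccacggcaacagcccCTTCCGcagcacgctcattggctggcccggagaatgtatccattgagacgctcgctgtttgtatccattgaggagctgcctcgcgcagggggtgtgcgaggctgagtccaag
SPRED1: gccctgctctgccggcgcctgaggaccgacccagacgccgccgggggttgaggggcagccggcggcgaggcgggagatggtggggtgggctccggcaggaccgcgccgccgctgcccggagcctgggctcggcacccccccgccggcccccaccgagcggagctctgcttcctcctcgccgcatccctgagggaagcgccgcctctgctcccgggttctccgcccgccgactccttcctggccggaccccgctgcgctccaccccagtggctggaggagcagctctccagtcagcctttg
PHLDA1: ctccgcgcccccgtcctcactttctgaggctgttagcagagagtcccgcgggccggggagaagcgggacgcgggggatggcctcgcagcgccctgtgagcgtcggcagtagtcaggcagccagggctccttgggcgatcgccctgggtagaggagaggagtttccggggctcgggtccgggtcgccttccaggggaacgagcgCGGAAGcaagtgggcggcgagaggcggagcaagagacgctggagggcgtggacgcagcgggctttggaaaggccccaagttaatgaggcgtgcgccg
SPRED2: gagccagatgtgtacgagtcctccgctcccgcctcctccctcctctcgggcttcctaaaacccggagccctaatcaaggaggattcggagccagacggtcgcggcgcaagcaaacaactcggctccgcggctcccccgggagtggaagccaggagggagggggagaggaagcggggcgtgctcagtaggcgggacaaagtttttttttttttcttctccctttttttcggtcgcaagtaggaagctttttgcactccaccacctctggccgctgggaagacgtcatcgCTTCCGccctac

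The search covered 4 motifs on both strands: CGGAAG, the AP-1 site TGANTCA, the cyclic AMP response element TGACGTCA, and the CArG box of serum response factor. DUSP6 and PHLDA1 each held 1 match to CGGAAG, which began 62 and 47 bases before the start. SPRED1 held none of the 4 motifs in its window. SPRED2 held CGGAAG 38 bases after the start shown, and a pair of AP-1 matches in the window of its other start. NRAS and NF1 held CGGAAG 5 and 1 bases after their starts, and NF1 also held TGACGTCA 166 bases before its start. The 3 windows of SPRY2 held none of the 4. The table had windows for 7 of the 9 genes, 10 windows in all, and DUSP4 and DUSP5 were not among them. Of all 35116 windows of the same length, 19.5% held CGGAAG, 7.71% TGANTCA, 1.85% TGACGTCA and 1.29% a CArG box. CGGAAG was thus present in genes that fell and in genes that did not pass, and a match is a run of letters, not an observed binding site.

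In the comparison of PIG-LONA with PIG-EMPTY, 3 of the 9 genes were lower and 0 were higher, and 6 did not pass the test, which was the quasi-likelihood test of edgeR at a Benjamini-Hochberg adjusted p under 0.05 over all genes. DUSP6 had the largest decrease of the 9, and SPRED1 and PHLDA1 followed. The called share was 33.3% among the 9, against 6.44% of all 15918 genes tested, 3.51% lower and 2.93% higher. Because the 9 were listed with earlier results known, that gap is a description and not independent evidence. The median log2 fold change of the 9 was -0.04, against 0.0011 for all genes tested. By read counts scaled to the depth of each library and given per 1e6 reads (CPM), both PIG-LONA libraries lay outside the range of the PIG-EMPTY libraries in 5 of the 9 genes, 4 lower and 1 higher. That share of 55.6% was close to the 48.0% of all tested genes whose groups did not overlap. Among the 9, the largest difference was that of DUSP6, 25.4% lower in PIG-LONA.

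**Figure D1:**
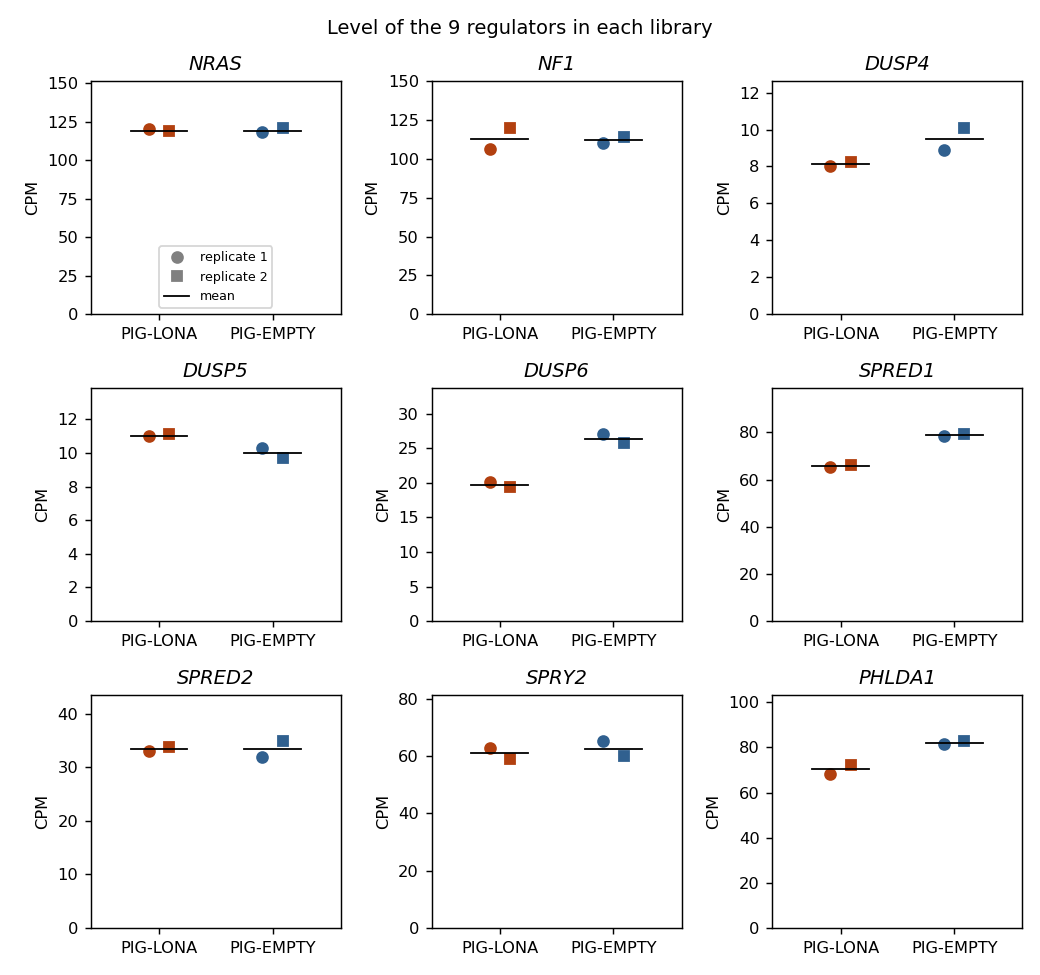
CPM (y axis, from 0) of each of the 9 genes in each library, PIG-LONA at left and PIG-EMPTY at right; circles are replicate 1, squares replicate 2, lines the group means of 2 libraries. DUSP6, SPRED1 and PHLDA1 sit lower in both PIG-LONA libraries, and NRAS is near 119 CPM in both groups.

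Length-scaled levels were compared between genes as CPM per kilobase of exon (RPKM). NRAS was the most abundant, at 26.5 to 27.1 RPKM over the 4 libraries, above 88.3% of tested genes. SPRY2 was next at 19.3 to 21.4 RPKM and did not reach the range of NRAS. Over both vectors the ranges of PHLDA1 (8.47 to 10.3 RPKM) and SPRED1 (7.93 to 9.58 RPKM) overlapped, though PHLDA1 was the higher in each library. SPRED2 lay below both of them, at 6.19 to 6.76 RPKM. With both vectors pooled, neighbours among DUSP6 (4.18 to 5.84 RPKM), NF1 (3.9 to 4.41 RPKM) and DUSP5 (3.71 to 4.23 RPKM) overlapped. Within PIG-EMPTY, DUSP6 (5.84 and 5.57 RPKM) lay above NF1 (4.06 and 4.2 RPKM) and DUSP5 (3.93 and 3.71 RPKM). DUSP4 was the scarcest at 1.1 to 1.39 RPKM, above 28.5% of tested genes. The place of NF1 depended on the exons counted as its length. With the exons of the basic annotation its mean was 7.85 RPKM in place of 4.14, and it moved above DUSP6.

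**Figure D2:**
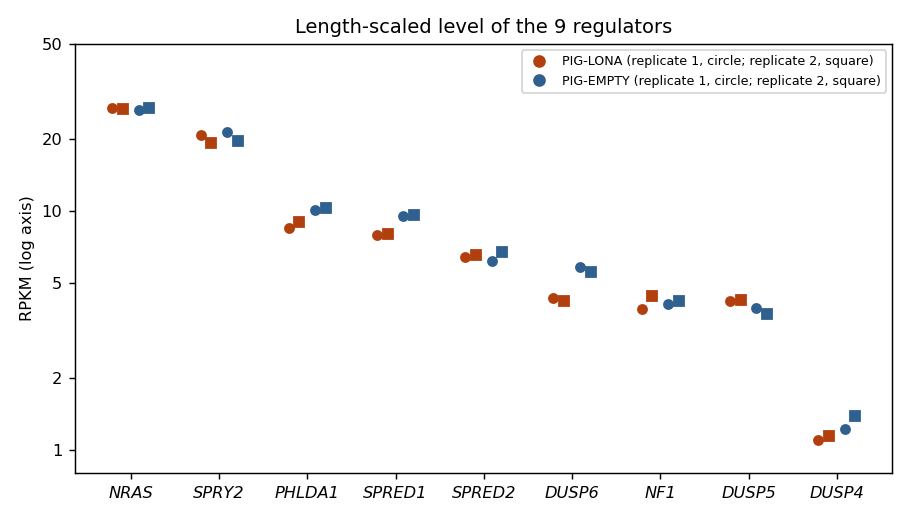
RPKM on a log axis for the 9 genes, ordered by their mean over the 4 libraries; PIG-LONA points are left of PIG-EMPTY points, circles are replicate 1 and squares replicate 2. NRAS (mean 26.8) and SPRY2 (20.3) stand above the rest, and DUSP4 (1.21) below.

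At the top of the circuit, NRAS (ENSG00000213281.5, chromosome 1, 114704469 to 114716894, GRCh38) is the RAS gene mutated in this line. It had 3578 and 4561 reads in PIG-LONA, or 120 and 119 CPM, against 3510 and 3920 reads in PIG-EMPTY, or 118 and 121 CPM. The groups overlapped. The log2 fold change was -0.0027 ± 0.04 (SE), with a 95% interval of -0.086 to 0.081 (edgeR adjusted p = 0.985).

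NF1 (ENSG00000196712.18, chromosome 17, 31094927 to 31382116) encodes neurofibromin, a GTPase-activating protein that makes RAS hydrolyse its GTP. Its level was 106 and 120 CPM in PIG-LONA, against 110 and 114 CPM in PIG-EMPTY. The PIG-LONA libraries thus bracketed the PIG-EMPTY libraries, and the spread between them was the wider (SD 9.8 against 2.8 CPM). The log2 fold change was 0.011 ± 0.05, with an interval of -0.092 to 0.11 (edgeR adjusted p = 0.947). EVI2A and EVI2B lie inside an intron of NF1 on the opposite strand, and EVI2A shares 152 exon bases with NF1. EVI2A had 339 and 356 reads in PIG-LONA and 354 and 384 in PIG-EMPTY, against at least 3164 reads of NF1 in every library. EVI2A was at a log2 fold change of -0.22 and EVI2B at 0.023, and neither passed.

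SPRED1 (ENSG00000166068.13, chromosome 15, 38252326 to 38357249) encodes a membrane adaptor that brings neurofibromin to RAS. It had 1961 and 2542 reads in PIG-LONA, or 65.5 and 66.1 CPM. In PIG-EMPTY it had 2341 and 2569 reads, or 78.6 and 79.1 CPM. Both PIG-LONA values lay below both PIG-EMPTY values. SPRED1 averaged 65.8 ± 0.415 CPM in PIG-LONA and 78.9 ± 0.339 CPM in PIG-EMPTY (SD, n = 2 each), or 16.5% lower. An SD from 2 libraries is itself uncertain, so these SDs do not measure how well the groups are separated. The log2 fold change was -0.26 ± 0.044 (SE), with an interval of -0.35 to -0.17 (edgeR adjusted p = 0.00076).

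SPRED2 (ENSG00000198369.10, chromosome 2, 65310851 to 65432637) encodes a related adaptor. Its level was 33 and 33.8 CPM in PIG-LONA, between the 31.9 and 34.9 CPM of PIG-EMPTY. The log2 fold change was 0.00051 ± 0.059, with an interval of -0.12 to 0.12 (edgeR adjusted p = 0.999). Per length, the ratio of SPRED1 to SPRED2 was 1.24 and 1.22 in PIG-LONA, against 1.54 and 1.42 in PIG-EMPTY. The size of this ratio depends on the exons counted as length. With those of the basic annotation, the means over the 4 libraries were 9.3 RPKM for SPRED1 and 8.03 RPKM for SPRED2, in place of 8.76 and 6.48. The ratio does not depend on the scaling of the libraries, and it was lower in both PIG-LONA libraries. With 2 libraries a group, an exact two-sided permutation test cannot give a p below 0.333, so this difference between the relatives was not tested further.

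SPRY2 (ENSG00000136158.12, chromosome 13, 80335976 to 80340951) encodes a Sprouty protein that dampens receptor signalling to RAS. It had 62.9 and 58.8 CPM in PIG-LONA and 65.1 and 59.9 CPM in PIG-EMPTY. The groups overlapped, and in each the spread between libraries exceeded the difference of the means. The log2 fold change was -0.04 ± 0.052, with an interval of -0.15 to 0.069 (edgeR adjusted p = 0.758). SPRY4, its expressed relative, was at 66.7 and 66.1 CPM in PIG-LONA and 62.8 and 64 CPM in PIG-EMPTY, and did not pass either (log2 fold change 0.066, edgeR adjusted p = 0.486). SPRY1 was near the detection limit with 11 to 14 reads in each library, and SPRY3 and SPRED3 had at most 6.

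DUSP6 (ENSG00000139318.8, chromosome 12, 89347232 to 89353271) encodes a cytoplasmic phosphatase with a strong preference for ERK, and its RNA is a widely used readout of the pathway. It had 601 and 745 reads in PIG-LONA, or 20.1 and 19.4 CPM. In PIG-EMPTY it had 805 and 838 reads, or 27 and 25.8 CPM. No PIG-LONA value came near a PIG-EMPTY value. The means were 19.7 ± 0.499 CPM in PIG-LONA and 26.4 ± 0.872 CPM in PIG-EMPTY (SD, n = 2 each), a log2 fold change of -0.42 ± 0.066 (edgeR adjusted p = 0.000333), with an interval of -0.56 to -0.28. Of all genes tested, 5.86% had a lower log2 fold change.

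DUSP5 (ENSG00000138166.6, chromosome 10, 110497838 to 110511544) encodes the nuclear counterpart, which also acts on ERK. It had 329 and 425 reads in PIG-LONA, or 11 and 11.1 CPM. In PIG-EMPTY it had 306 and 315 reads, or 10.3 and 9.7 CPM. Both PIG-LONA values were above both PIG-EMPTY values, opposite in direction to DUSP6, but DUSP5 did not pass the test (log2 fold change 0.14 ± 0.092, interval -0.048 to 0.34, edgeR adjusted p = 0.44). Per length, DUSP6 stood to DUSP5 at 1.03 and 0.99 in PIG-LONA, against 1.49 and 1.5 in PIG-EMPTY. The 2 phosphatase RNAs were thus about equally abundant per length in PIG-LONA, while DUSP6 was the more abundant in PIG-EMPTY.

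DUSP4 (ENSG00000120875.9, chromosome 8, 29333064 to 29350668) encodes another nuclear phosphatase of this family. It had 240 and 318 reads in PIG-LONA, or 8.02 and 8.27 CPM. In PIG-EMPTY it had 264 and 328 reads, or 8.87 and 10.1 CPM. The groups did not overlap, and DUSP4 was 1 of 4 among the 9 genes with an unadjusted p under 0.05 in edgeR, against 18.7% of all genes tested. It did not pass after adjustment (log2 fold change -0.22 ± 0.10, interval -0.44 to -0.0039, edgeR adjusted p = 0.256). Its estimate matched that of PHLDA1 in size, with a wider error at its lower count. Without PIG-EMPTY replicate 2, the higher library, it was -0.12.

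PHLDA1 (ENSG00000139289.13, chromosome 12, 76025447 to 76033932) encodes a pleckstrin homology-like protein whose RNA follows ERK activity in many cell types. It had 2046 and 2780 reads in PIG-LONA, or 68.4 and 72.3 CPM. In PIG-EMPTY it had 2429 and 2687 reads, or 81.6 and 82.7 CPM. Both PIG-LONA libraries were lower. The means were 70.3 ± 2.78 CPM in PIG-LONA and 82.1 ± 0.818 CPM in PIG-EMPTY (SD, n = 2 each), a log2 fold change of -0.22 ± 0.045 (edgeR adjusted p = 0.00398). The call was lost when PIG-EMPTY replicate 2 was left out (edgeR adjusted p = 0.0745) or the filter on low counts was dropped (edgeR adjusted p = 0.0627). Over all 12 alternatives its adjusted p ran from 6.9e-06 to 0.0745. DUSP6 and SPRED1 passed under each of the 12 other settings.

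**Figure D3:**
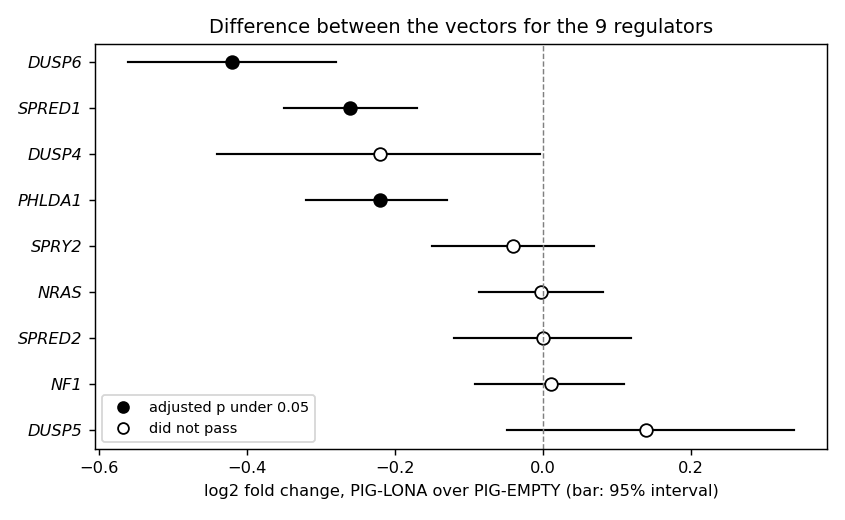
Log2 fold change of PIG-LONA over PIG-EMPTY for the 9 genes (points) with 95% intervals (bars); filled points passed adjusted p under 0.05. DUSP6 (-0.42), SPRED1 (-0.26) and PHLDA1 (-0.22) passed, whereas NRAS, NF1 and SPRED2 lie at 0 with intervals within 0.12 on either side.

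DUSP6 and PHLDA1 share chromosome 12, where the median log2 fold change of the other 838 tested genes was -0.0089. On chromosome 15, which holds SPRED1, the median of 541 other genes was -0.012. Within 1 Mb of DUSP6 and of SPRED1, 0 other tested genes were called, out of 3 and 2. The median log2 fold change was 0.084 for the 3 neighbours of DUSP6, and -0.31 for the 2 of SPRED1, lower like SPRED1 itself (-0.26). Whether the decrease of SPRED1 is separate from that of its neighbours was not tested. Within 1 Mb of PHLDA1, 1 of 10 was called, GLIPR1, which was lower and was named after its value was seen, and the median of the 10 was 0.10. None of the 9 genes lies on chromosome 6, whose genes had a median log2 fold change of 0.17 in PIG-LONA. Annotated antisense genes overlap exons of DUSP6 and PHLDA1, and each had at most 15 reads in any library.

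Other genes of the pathway were described from lists grouped by role, 73 genes in all, of which 64 passed the filter. Among these 64, 2 were lower, 1 was higher and 61 did not pass, with a median log2 fold change of -0.0076. The called share was 4.69%, against 6.44% over all genes tested. The steps above RAS gave no call in the main test. GAB1, an adaptor gene, was called only when PIG-LONA replicate 1 was left out. Of 8 receptor adaptors and SHP2, 0 were called (log2 fold changes -0.039 to 0.17), nor was any of 5 tested exchange factors, which load RAS with GTP (-0.17 to 0.074). At these stages the count at an unadjusted p under 0.05 in edgeR was 1 and 0, against 18.7% of all genes tested.

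The RAS genes and the kinases below them also gave 0 calls in the main test, where 6.44% of all genes tested were called. HRAS was at 37 and 33.1 CPM in PIG-LONA and 36.1 and 33.9 CPM in PIG-EMPTY. Its groups overlapped. The related gene RRAS2 was at 5.51 and 5.62 CPM in PIG-LONA, against 6.72 and 7.79 CPM in PIG-EMPTY, and did not pass (log2 fold change -0.38, edgeR adjusted p = 0.0658), though it was called lower with upper-quartile scaling and without PIG-EMPTY replicate 1. The 8 tested GTPase-activating protein genes other than NF1 ran from -0.32 to 0.28 with a median of -0.01, and the 11 tested genes of RAF, MEK, ERK and their scaffolds from -0.15 to 0.10 with a median of -0.01. RASAL2 and MAP2K2, from these lists, were called only when PIG-LONA replicate 1 was left out, which left a single PIG-LONA library. Of the RAS, GTPase-activating and kinase lists, 1, 0 and 1 genes had an unadjusted p under 0.05 in edgeR. These lists had 5, 8 and 11 tested genes, and 18.7% of all genes tested had such a p.

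**Figure D4:**
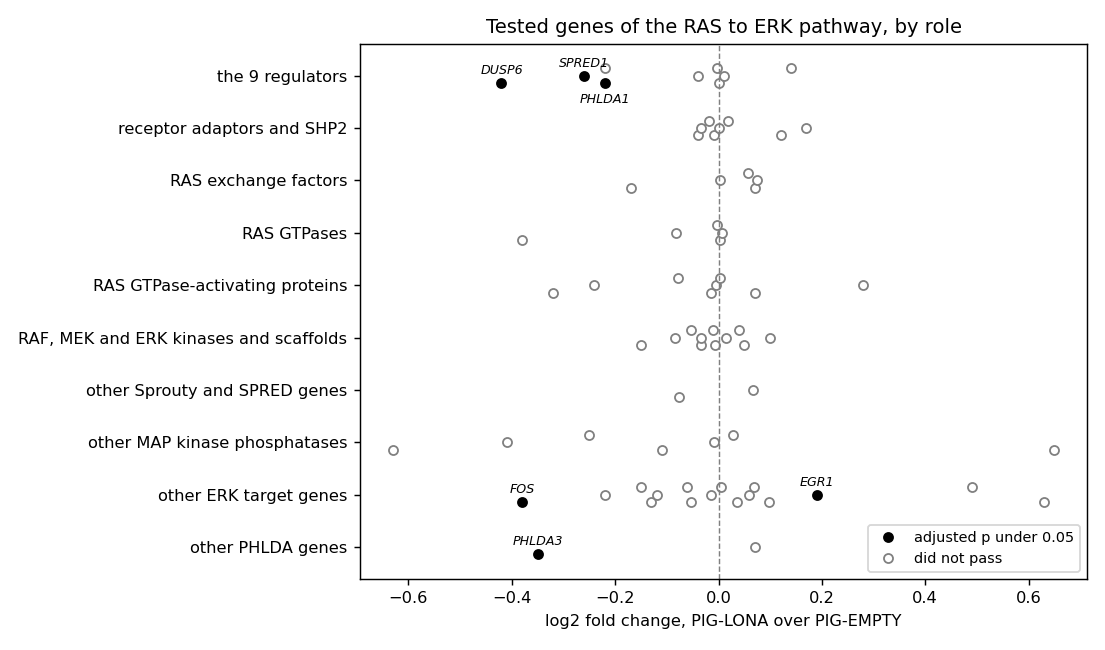
Log2 fold change of PIG-LONA over PIG-EMPTY (x axis) for each tested gene of the pathway, grouped by role (y axis, points spread vertically to separate them); filled points passed adjusted p under 0.05 and are named. Calls fall among the 9 regulators, the other ERK targets (FOS at -0.38, EGR1 at 0.19) and the PHLDA genes (PHLDA3 at -0.35), and 0 among the adaptors, RAS genes, GTPase-activating proteins and kinases.

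Of the 7 other MAP kinase phosphatases tested, 0 passed and 1 had an unadjusted p under 0.05 in edgeR, against 18.7% of all genes tested. Their median log2 fold change was -0.11, with 5 estimates below 0 and 2 above. DUSP7, a cytoplasmic ERK phosphatase like DUSP6, was at 106 and 107 CPM in PIG-LONA and 106 and 108 CPM in PIG-EMPTY. DUSP9 was at a log2 fold change of -0.41 and did not pass (edgeR adjusted p = 0.337). It had few reads, 48 and 59 in PIG-LONA and 52 and 78 in PIG-EMPTY. DUSP16, a phosphatase of the stress kinases, gave the lowest estimate (-0.63) on 19 and 27 reads in PIG-LONA and 32 and 33 in PIG-EMPTY, and did not pass (edgeR adjusted p = 0.256).

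Among 16 tested ERK target genes outside the 9, 1 was lower, 1 was higher and 14 did not pass, with a median log2 fold change of -0.005. Of the 16 estimates, 8 were below 0 and 8 above. At an unadjusted p under 0.05 in edgeR there were 6 of the 16, against 18.7% of all genes tested, with FOS, ETV5, CCND1 and KLF10 lower and EGR1 and IER3 higher. FOS, an AP-1 subunit gene induced directly by ERK signalling, was at 27.3 and 26.6 CPM in PIG-LONA, against 35.5 and 34.8 CPM in PIG-EMPTY. The groups were well separated (log2 fold change -0.38 ± 0.058, edgeR adjusted p = 0.000244), and FOS passed under each of the 12 other settings. EGR1, an immediate early zinc finger gene, went the other way, with 55.6 and 54.6 CPM in PIG-LONA and 49.2 and 47.6 CPM in PIG-EMPTY (log2 fold change 0.19 ± 0.049, edgeR adjusted p = 0.0228). EGR1 was not called in 4 of the 12 other settings, namely DESeq2, no filter on low counts, and the removal of PIG-EMPTY replicate 1 or 2. ETV4 and ETV5, ETS factor genes often read as ERK output together with DUSP6, were at -0.054 and -0.15. Both were lower in each PIG-LONA library than in each PIG-EMPTY library, and neither passed. The groups did not overlap, in either direction, for 48.0% of all tested genes. The cyclin gene CCND1 (-0.12) and KLF10 (-0.13) did not pass either, and the same held for MYC (0.035), FOSL1 (0.097) and JUNB (-0.061). MYC was called only when PIG-LONA replicate 2 was left out. IER3, an immediate early gene on chromosome 6, had 3.41 and 2.86 CPM in PIG-LONA and 2.12 and 1.91 CPM in PIG-EMPTY (log2 fold change 0.63, edgeR adjusted p = 0.0513). It was called higher in 4 of the 12 other settings, namely upper-quartile scaling, the filter at 1 CPM in 2 libraries, the replicate block, and the removal of PIG-LONA replicate 2. One of the 12 leaves chromosome 6 genes out and so does not test it. EGR3, a relative of EGR1 with few reads, had 1.57 and 1.59 CPM in PIG-LONA and 1.21 and 1.05 CPM in PIG-EMPTY. It did not pass (log2 fold change 0.49, edgeR adjusted p = 0.292).

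PHLDA3, a relative of PHLDA1 known as a target of p53, was lower as well, with 19.6 and 19.9 CPM in PIG-LONA and 23.6 and 26.8 CPM in PIG-EMPTY (log2 fold change -0.35 ± 0.071, edgeR adjusted p = 0.00371). It did not keep its call when PIG-EMPTY replicate 2 or the filter on low counts was left out. PHLDA2, the third gene of the family, was at 0.07 and did not pass. All 6 myeloid blast marker estimates were negative, as for DUSP6, SPRED1 and PHLDA1. Against 6.44% of all genes tested, 33.3% of these markers were called, and 4 of the 6 did not pass. Their summed level was 1091 to 1110 CPM in PIG-LONA and 1155 to 1179 CPM in PIG-EMPTY. CEBPA, the most abundant of them, overlapped between the groups at a log2 fold change of -0.018. The part of these markers in the differences above was not tested. In bulk RNA, fewer cells with a transcript and less of it per cell cannot be told apart.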

How the data were processed

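RNA of 4 transduced OCI-AML3 cultures was measured by sequencing of poly(A) RNA with a directional kit, per the labels' protocols. The table deposited by the authors gives, for each Ensembl gene and library, the raw count of reads. FastQC 0.11.4, STAR 2.5, HTSeq and hg38 are listed in the submitters' processing notes. Which annotation and strand setting were used for counting is not given in the sources used here, so reads on overlapping or antisense genes cannot be told apart with certainty. Symbols were found for 60357 of 67062 rows; the others held 0.0723% of counts. Coordinates and exon lengths came from GENCODE 29, and start-site sequences from RefSeq on GRCh38.p14.

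The test was that of edgeR 4.0.16 under R 4.3.3 (quasi-likelihood test, TMM scaling, two-sided, Benjamini-Hochberg over all genes). The filter filterByExpr (minimum count 10, total 15) left 15918 of 29600 genes with a count. SE is the log2 fold change divided by the root of F. CPM uses TMM-scaled totals. Total counts of 29819572 to 38358442 set the counting precision, with a biological coefficient of variation of 2.95%. Each library came from its own transduction, so all 4 counted as samples. Replicates differed by more than counting noise (chi-square per gene 4.68 in PIG-LONA, 1.76 in PIG-EMPTY). That spread alone cannot show that libraries are independent, since repeated preparations can also exceed counting noise. The test was checked on simulated counts first. It recovered 42% of changes set at 1.2-fold, 72% at 1.5-fold and 98% at 4-fold, with 5.06% of calls false. A gene that did not pass may therefore still differ by such small folds. Alternatives were other scalings, filters, DESeq2 1.42.0, limma 3.58.1 (voom), a replicate block, each library left out, and chromosome 6 left out. All 9 genes are named, and every gene of the pathway lists that passed; others named are given as values. The genes, lists and motifs were chosen with earlier results of these data known.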

Additional observations from a re-analysis of the deposited data

How the results depend on the processing

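Over the 12 other settings, 2 or 3 of the 9 genes were called, DUSP6 and SPRED1 in each and PHLDA1 in 10. The log2 fold change ran from -0.46 to -0.39 for DUSP6, from -0.27 to -0.25 for SPRED1 and from -0.26 to -0.18 for PHLDA1. None of the other 6 was called under any setting; the estimates of NRAS, NF1, SPRED2 and SPRY2, all near 0, changed sign in 4, 2, 5 and 2 settings. The count of all genes called, 1025, was 334 without the low-count filter, 473 with DESeq2 and 660 without chromosome 6 genes, and 466 to 2331 with 1 library left out (PIG-EMPTY replicate 1 left out gave 644, PIG-EMPTY replicate 2 gave 466, PIG-LONA replicate 1 gave 2331). The count of other pathway genes, 3, was 5 with upper-quartile scaling, 1 without the low-count filter and 1 to 6 with 1 library left out (PIG-EMPTY replicate 2 left out gave 1, PIG-LONA replicate 1 gave 6, PIG-LONA replicate 2 gave 5). The cause was not tested. A group left with a single library was assumed to vary like the other.

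Deviations of same-numbered libraries correlated at 0.0288 over all tested genes, so no general pairing by replicate number was seen. A batch shared by only some genes was not tested. With the replicate block, 1101 genes, 3 of the 9 and 4 other pathway genes (IER3 added) were called. DUSP4 had the fewest reads of the 9 and the largest SE (0.10). The part of depth in its result was not tested.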
